A study of Mus musculus with 4 samples.

Results

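The 10 genes described here encode enzymes of glycolysis in the heart. They were chosen by name, with earlier results of these data known, and are *Pfkm*, *Aldoa*, *Tpi1*, *Gapdh*, *Pgk1*, *Pgam2*, *Eno3*, *Pkm*, *Ldha* and *Ldhb*. All 10 were among the 15746 genes of the deposited table. All 10 also passed the filter on low values (2 or more libraries with 10 or more normalized counts), as did 12150 genes in all.

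Glycolysis cleaves glucose to pyruvate in the cytosol and yields ATP and NADH. The working heart covers most of its energy by oxidizing fatty acids in mitochondria, but it also takes up glucose and lactate, and lactate dehydrogenase links lactate to pyruvate, which mitochondria oxidize. Striated muscle uses its own isozymes for several steps, among them muscle phosphofructokinase, muscle phosphoglycerate mutase and beta-enolase. All these mRNAs are transcribed in the nucleus and translated in the cytosol.

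RNA was sequenced from the hearts of wild-type (WT) adult mice, split into a mitochondrial fraction (label: isolated mitochondria, n = 2 libraries) and a rest fraction (label: tissue minus mitochondria, n = 2 libraries). Sex, strain, exact age and pooling of animals are not given in the sources used here, and nothing says that the replicates came from separate animals, so that p-values measure only the spread between these libraries. The rest fraction was the low-speed pellet of the homogenate. The mitochondrial pellet was treated with digitonin, which permeabilizes membranes, and RNase A before RNA isolation, and its RNA was fragmented for 1 min, a time the methods give for mitochondrial samples only. These steps and the fraction cannot be told apart. The supernatant above the pelleted mitochondria belonged to neither fraction.

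The libraries held about 23500000 to 47400000 reads on genes. The mitochondrial chromosome took 97.6 and 93.5% of the counts in the mitochondrial fraction and 63.2 and 67.5% in the rest fraction, which left about 1150000 and 2080000 reads on nuclear genes in the mitochondrial fraction and 9680000 and 7630000 in the rest fraction. Markers of cardiomyocytes, 10 of 10 tested, had a summed normalized count of 222865 to 298572 in the mitochondrial and 215496 to 244957 in the rest fraction. *Myh6* alone measured 128576 to 184487 per library, and *Nppa* was lowest at 112 to 644. As a share of nuclear counts these markers held 6.69 and 4.20% in the mitochondrial and 9.57 and 7.73% in the rest libraries. Both mitochondrial values were above both rest values in 7 of these markers and below in 1, *Ryr2*, and *Myl3* alone passed the limma test (log2 fold change 1.61, adjusted p = 0.0469). Of 5 tested smooth muscle and pericyte markers 2 were lower in both mitochondrial libraries and 3 overlapped, and the smooth muscle myosin *Myh11* alone passed the test (-3.40, adjusted p = 0.0427). Of the skeletal muscle markers 3 of 6 were tested, *Myh1*, *Myh2* and *Myh4*, with summed normalized counts of 81 to 150 per library. The 8 endothelial and 5 erythroid markers tested had lower values in both mitochondrial than in both rest libraries, with no adjusted p under 0.05. Such a separation downward held for 33.4% of all 12150 tested genes and upward for 27.7%. It was upward in 5 of 7 fibroblast and 5 of 6 macrophage and blood markers. In fractions of homogenized heart, cell numbers, RNA per cell and the fractionation steps cannot be told apart as sources of a marker difference. The part of these lists in the results below was not tested. The 13 mRNAs of the mitochondrial chromosome had log2 fold changes of 2.85 to 3.56, with 6 past the test, and 4 nucleus-retained RNAs had -4.06 to -0.57, with 0 past it and 3 lower at an unadjusted p under 0.05.

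The values are normalized counts, read counts that the authors divided by a size factor per library and rounded. Under this scaling 9 of the 10 enzymes' RNAs had a positive log2 fold change, as did 43.8% of all tested genes. Scaled to the total of nuclear genes, 3 of the 10 had, beside a median of all tested genes of -0.98. In the deposited values, both mitochondrial libraries lay above both rest libraries in 8 of the 10 genes, which held for 27.7% of all tested genes. *Pkm* and *Pfkm* overlapped between the fractions. Only *Pgam2* passed the test (limma on log2 of normalized count plus 1, Benjamini-Hochberg adjusted p under 0.05), by which 2.16% of all tested genes were called higher and 1.39% lower in the mitochondrial fraction. At an unadjusted p under 0.05, 6 of the 10 genes were higher and 0 lower, beside 14.1% of all tested genes that were higher. The median log2 fold change of the 10 genes, mitochondrial over rest, was 0.73, and that of all tested genes was -0.14.

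**Figure D1:**
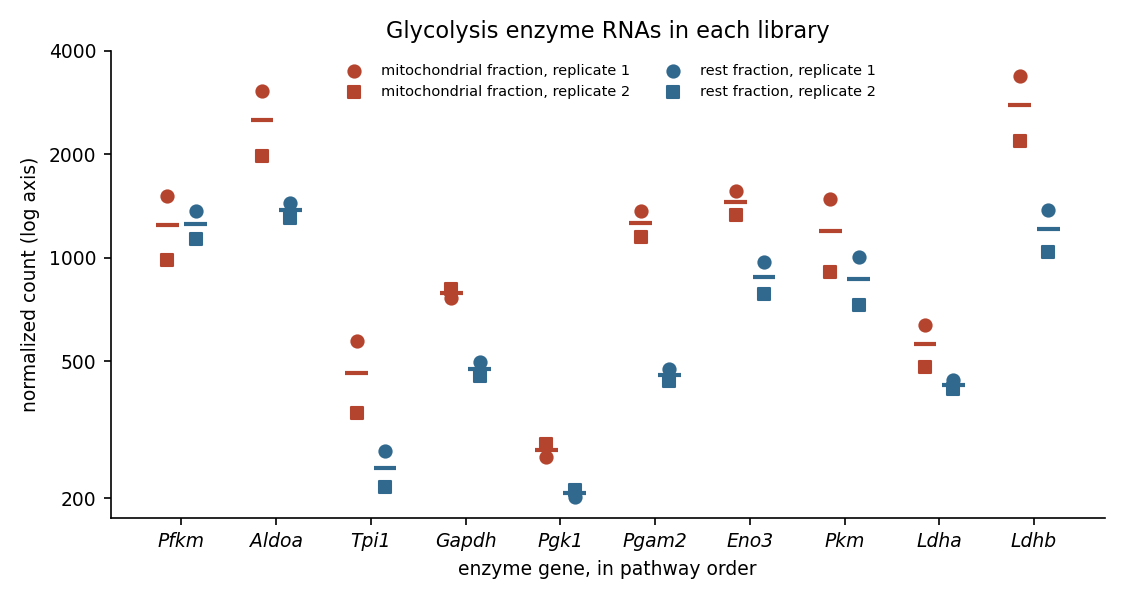
Normalized count (log axis) of each enzyme gene, in pathway order, in the 2 mitochondrial and the 2 rest libraries; bars mark the mean of each fraction. Under this deposited scaling both mitochondrial values lie above both rest values in 8 of 10 genes, with *Pfkm* and *Pkm* as the exceptions.

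The first member of the pathway is *Pfkm* (GRCm38, chr15:98092589-98132451, plus strand), the muscle subunit of phosphofructokinase, which commits sugar to glycolysis. Mitochondrial replicates 1 and 2 measured 1510 and 985, rest replicates 1 and 2 measured 1371 and 1132, and values follow in this order throughout. The mitochondrial libraries enclosed the rest libraries, and the log2 fold change was -0.03 with a 95% interval of -0.73 to 0.67 (adjusted p = 0.946). *Aldoa* (chr7:126795234-126800751, minus strand) encodes the aldolase that splits fructose 1,6-bisphosphate. It measured 3048 and 1982 in the mitochondrial fraction against 1443 and 1304 in the rest fraction. The fractions did not overlap, but the mitochondrial libraries differed from each other by more than the rest libraries did, and the difference missed the threshold (0.84, SE 0.26, adjusted p = 0.119). *Tpi1* (chr6:124810586-124814296, minus strand), triosephosphate isomerase, which interconverts the 2 products of aldolase, measured 573 and 355 against 275 and 216. Here too the fractions were separate and the test was not passed (0.89, SE 0.30, adjusted p = 0.136).

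*Gapdh* (chr6:125161715-125166467, minus strand) oxidizes glyceraldehyde 3-phosphate and makes the NADH of the pathway, and its mRNA often serves as a reference in expression assays. It measured 763 and 814 in the mitochondrial fraction against 497 and 453 in the rest fraction. The replicates were close in both fractions, and the mean was 788.5 ± 36.1 (SD, n = 2) against 475 ± 31.1 (SD, n = 2), a ratio of 1.66. The log2 fold change of 0.73 (SE 0.16, 95% interval 0.31 to 1.15) had an adjusted p of 0.0677. *Pgk1* (chrX:106187100-106203699, plus strand), the first step of the pathway that makes ATP, measured 263 and 288 against 202 and 212. The 2 fractions did not overlap, while the interval of the log2 difference, -0.04 to 0.86, included 0.

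*Pgam2* (chr11:5801640-5803733, minus strand) encodes the muscle isozyme of phosphoglycerate mutase, which moves the phosphate of 3-phosphoglycerate. It measured 1371 and 1148 in the mitochondrial fraction against 476 and 439 in the rest fraction. Both mitochondrial values exceeded both rest values by more than the gap between replicates, with a ratio of the means of 2.75. The log2 fold change was 1.45 (SE 0.18, 95% interval 0.99 to 1.92, adjusted p = 0.0427), and 94.8% of all tested genes had a lower value. The call was lost when any single library was left out (1.33 to 1.58, adjusted p = 0.0523 to 0.526), as were the calls of every other gene tested, and also after scaling to the total of nuclear genes (0.59, adjusted p = 0.162).

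*Eno3* (chr11:70657202-70662513, plus strand), muscle enolase, makes phosphoenolpyruvate. It measured 1569 and 1332 against 971 and 783 in the rest fraction, with separate fractions and a log2 fold change of 0.73 (SE 0.20, adjusted p = 0.0958). *Pkm* (chr9:59656368-59679375, plus strand), pyruvate kinase, makes the second ATP of the pathway. Its values, 1487 and 908 against 1005 and 729, overlapped, since mitochondrial replicate 2 fell between the rest libraries (log2 fold change 0.44, 95% interval -0.39 to 1.27).

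The lactate dehydrogenase subunits differed in their values. *Ldhb* (chr6:142490249-142507957, minus strand), the heart type subunit, measured 3389 and 2181 against 1381 and 1043. Its lower mitochondrial value was still above the higher rest value, and the log2 fold change was 1.18 (SE 0.29, 95% interval 0.42 to 1.94, adjusted p = 0.0802). Where only genes with a mean above 50 were tested by limma, *Ldhb* had an adjusted p of 0.0343 and *Gapdh* of 0.0482. That setting called 790 of 5556 genes higher, beside 262 of 12150 in the main test. Scaled to the total of nuclear genes, *Ldhb* had a log2 fold change of 0.31 (limma adjusted p = 0.548) and *Gapdh* of -0.13 (adjusted p = 0.697). *Ldha* (chr7:46841475-46855627, plus strand), the subunit that prevails in skeletal muscle, measured 639 and 482 against 440 and 415. These values were also separate, at a log2 fold change of 0.38 (SE 0.20, adjusted p = 0.282).

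The reads behind these values were fewer in the mitochondrial fraction. About 68 to 875 reads fell on a member in the mitochondrial libraries and about 580 to 5461 in the rest libraries, and 3 reads corresponded to 7.65 to 11.6 normalized counts in the former and 0.793 to 1.10 in the latter. *Pgk1* in mitochondrial replicate 1 had the 68 reads. Mitochondrial replicate 1 exceeded replicate 2 by a ratio of 1.53 in *Pfkm*, 1.54 in *Aldoa*, 1.55 in *Ldhb*, 1.61 in *Tpi1* and 1.64 in *Pkm*. In *Gapdh* and *Pgk1* this ratio was below 1, at 0.937 and 0.913. Its median over tested genes with a mean above 50 was 1.15.

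The height of the difference depended on the scaling, while a scaling shifts all genes of a library alike and so keeps the order of the members by construction. Size factors that aim at the typical gene left the median of the 10 genes 0.87 above that of all tested genes on the log2 scale. Scaled to the total of nuclear genes, the log2 fold change ranged from -0.89 for *Pfkm* to 0.59 for *Pgam2*, 3 of 10 values were positive, none passed the test, and all tested genes had a median of -0.98. Scaled to the library total, which mitochondrial RNAs fill, all 10 were lower in the mitochondrial fraction, at -4.01 to -2.53, around a median of all tested genes of -3.93. The members' median was above that of all tested genes by 0.84 with the nuclear total and 0.68 with the library total. A divisor per library keeps this gap by construction, apart from the 1 added to each value before the log2. As a share of nuclear reads the 10 genes made up 0.327% (Wilson 95% interval 0.317 to 0.338) and 0.198% (0.192 to 0.204) in the mitochondrial fraction, against 0.315% (0.312 to 0.319) and 0.241% (0.238 to 0.245) in the rest fraction. The fractions overlapped in this share, and the libraries within a fraction differed beyond counting error, the only error these intervals cover.

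**Figure D2:**
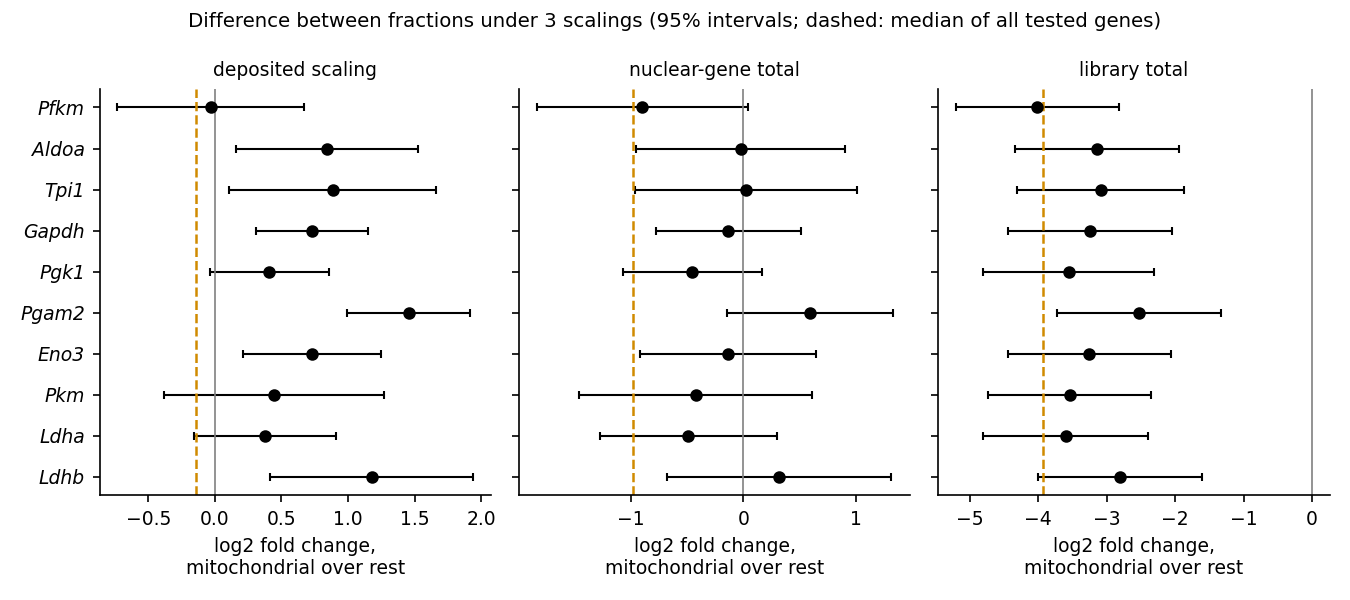
Log2 fold change (mitochondrial over rest) of each enzyme with its 95% interval from limma under the deposited scaling, after scaling to nuclear genes and after scaling to the library total; the dashed line is the median of all tested genes. The position relative to 0 moves with the scaling, and the order of the genes, from *Pgam2* to *Pfkm*, is kept by construction.

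Ratios between members within a library do not depend on the scaling. *Ldhb* over *Pfkm* was 2.24 and 2.21 in the mitochondrial fraction against 1.01 and 0.921 in the rest fraction. *Aldoa* over *Pfkm* was 2.02 and 2.01 against 1.05 and 1.15. In both ratios the replicates lay far closer to each other than the fractions did, although the normalized counts of mitochondrial replicates 1 and 2 differed more. This did not hold for *Gapdh* over *Pfkm*, at 0.505 and 0.826 against 0.363 and 0.400, where the mitochondrial replicates lay further apart than the fractions. The divisor *Pfkm* had the lowest log2 fold change of the members. *Pgam2* over *Pfkm* was 0.908 and 1.17 against 0.347 and 0.388, and *Pgam2* over *Gapdh* was 1.80 and 1.41 against 0.958 and 0.969. *Ldhb* over *Ldha* was 5.30 and 4.52 against 3.14 and 2.51. These ratios are given without a test; an exact 2-sided permutation test of 2 libraries against 2 cannot go below p = 0.33.

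Transcript length moved with the difference. The reference transcript in GENCODE M21 was shortest for *Pgam2* (840 bases), followed by *Ldhb* (1304), *Gapdh* (1420), *Aldoa* (1549), *Eno3* (1564), *Tpi1* (1607), *Ldha* (1766), *Pgk1* (1825), *Pkm* (2432) and *Pfkm* (2879). The shortest transcript thus had the largest and the longest the smallest log2 fold change. Spearman's rho between length and log2 fold change was -0.867 across the 10 genes, which share the 4 libraries. Among 10611 nuclear protein-coding genes rho was -0.43. The median log2 fold change of such genes was 1.19 up to 1000 bases, 0.44 from there to 2000, 0.02 from 2000 to 3000 and -0.39 above. Set beside other genes of their length class, 7 of the 10 members exceeded the class median, by a median of 0.29 over all 10. *Pgam2* exceeded its class by 0.27 and 64.1% of the 496 other genes in it. *Ldhb* exceeded its class by the most, 0.74, and 87.6% of 1809 other genes. *Pgk1*, *Ldha* and *Pfkm* differed from their class medians by -0.03, -0.06 and -0.05. The part of length, and of the fragmentation time, in these differences was not tested.

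**Figure D3:**
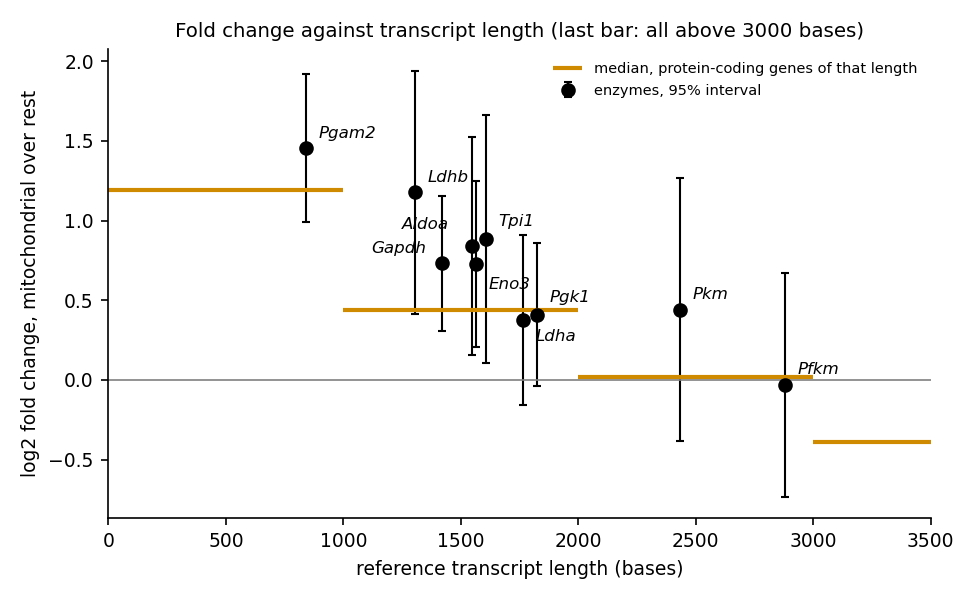
Log2 fold change (mitochondrial over rest, 95% interval) of each enzyme against the length of its reference transcript in bases; horizontal bars give the median of all tested nuclear protein-coding genes of that length class. Both tend to be lower for longer transcripts, from 1.45 for *Pgam2* at 840 bases to -0.03 for *Pfkm* at 2879 bases.

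Levels of different genes were compared per kilobase of reference transcript. In the rest fraction *Ldhb* (929.4 ± 183.3, SD, n = 2) and *Aldoa* (887 ± 63.4) led and could not be separated, since their libraries overlapped. *Eno3* (561 ± 85.0), *Pgam2* (545 ± 31.1), *Pfkm* (435 ± 58.7), *Pkm* (356 ± 80.2) and *Gapdh* (335 ± 21.9) followed. Of these neighbours *Eno3* overlapped with *Pgam2*, *Pfkm* with *Pkm*, and *Pkm* with *Gapdh*, while both values of *Pgam2* were above both of *Pfkm*. *Ldha* (242 ± 10.0), *Tpi1* (153 ± 26.0) and *Pgk1* (113 ± 3.87) were lowest and separate from each other. In the mitochondrial fraction *Ldhb* (2136 ± 655), *Aldoa* (1624 ± 487) and *Pgam2* (1499 ± 188) led, each overlapping with its neighbour in this order, and *Pgk1* (151 ± 9.69) was again the lowest.

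These levels depend on how much of a transcript can be assigned to a single gene, because reads that aligned to several places were excluded from the counts. Of the windows of 75 bases, the read length, in the *Gapdh* transcript, 80.3% (1081 of 1346) occurred without a mismatch in transcripts of another gene, in 121 genes in all. The 265 remaining windows were centred in the 5′ UTR (197) and the 3′ UTR (68), and 0 were centred in the coding sequence. A single processed pseudogene, *Gm7336*, matched *Gapdh* over 1090 consecutive bases. In *Pgk1* 67.5% of the windows were shared, nearly all with the pseudogenes *Pgk1-rs7* and *Gm5537*. The share was 19.6% in *Pkm*, 16.7% in *Ldhb*, 5.38% in *Ldha*, 2.48% in *Tpi1* and 1.49% in *Aldoa*, and no window of *Pgam2*, *Eno3* or *Pfkm* was shared. *Pkm* and *Pfkm* overlap other genes on the same strand (*Gm49759* by 767 bases, *Gm26513* by 341), where reads were excluded as well.

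Counted per 1000 windows held by no other gene, *Gapdh* rose in order from seventh to first in the rest fraction, with 1875 and 1709 beside 1349 and 1019 for *Ldhb*, next in order. In the mitochondrial fraction it reached 2879 and 3072 and overlapped with *Ldhb* at 3310 and 2130. *Pgk1* moved from the last place to the eighth in the rest fraction, at 355 and 373. *Pgam2*, *Eno3* and *Pfkm* hardly changed. This scale uses a single transcript per gene, and reads from other *Gapdh* transcripts or with mismatches would alter it. Per kilobase of merged exons, taken over all transcripts of a gene, *Gapdh* was at rank 8 in the rest fraction (120 and 110). *Ldhb* (880 and 664) led there, followed by *Pgam2* (567 and 523), so that the order of the enzymes depended on the length used. The log2 fold change of a gene is the same on each of these scales.

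**Figure D4:**
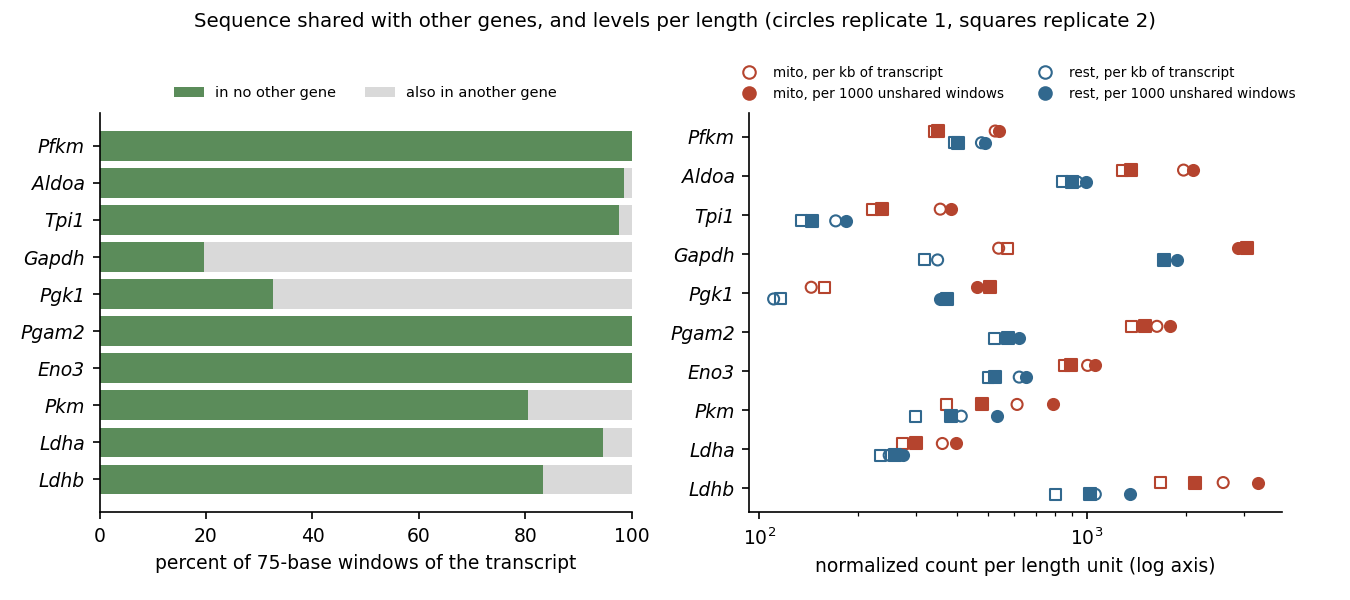
Left, percent of 75-base windows of each reference transcript that occur in no other gene (green) or also in another gene (grey). Right, normalized count in each library per kilobase of transcript (open) and per 1000 unshared windows (filled), on a log axis; *Gapdh* and *Pgk1* shift the most, and *Pgam2*, *Eno3* and *Pfkm* have no shared window.

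The copies of *Gapdh* were counted as genes of their own. With at least 90% identity over at least 100 bases, 182 genes matched the *Gapdh* transcript, 172 of them pseudogenes, and 63 were listed in the table. Summed over these 63 the normalized count was 1647 and 1376 against 921 and 679, more than that of *Gapdh* itself in every library (2.16 and 1.69 times its value in the mitochondrial fraction, 1.85 and 1.5 times in the rest fraction). Copies and gene together had a log2 difference of 0.86 between fractions, beside 0.73 for *Gapdh* alone. Of the 44 copies that were tested, 42 had a positive log2 fold change and none passed the test, while 17 were higher at an unadjusted p under 0.05. Of all tested genes 43.8% had a positive value and 14.1% were higher at that p. The copies are not independent of each other or of *Gapdh*, since 25 of the 63 had an identity of 99% or more. How many of their reads came from *Gapdh* mRNA was not tested. The 63 held 60 pseudogenes and 3 protein-coding genes, among them *Peli2*, which matched at 90.8% identity. The study's RT-qPCR oligos for *Gapdh* are shown because both lie within the shared sequence.

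Gapdh sense oligo, bases 760 to 779 of the transcript: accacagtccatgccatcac
Gapdh antisense oligo, reverse complement of bases 908 to 927: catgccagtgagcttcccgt

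The sense oligo occurred without a mismatch in 56 other genes and the antisense oligo in 94. Both sites occurred in 31 other genes, of which 23 were listed, and 9 of these held the same 168 bases from oligo to oligo. The 23 listed genes summed to 1122 and 842 in the mitochondrial and 538 and 407 in the rest libraries, about as much as *Gapdh* itself except in mitochondrial replicate 1, where they had more. For the other members the listed copies were smaller. *Gm5514*, the copy of *Ldhb*, measured 352 and 122 against 148 and 81. The 3 listed copies of *Pkm* summed to 86 to 112 and the 2 of *Pgk1* to 49 to 84 per library, and *Pgam2*, *Eno3* and *Pfkm* had no such copy.

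Sister isozymes of the members share only short identical stretches. The longest stretch common to the transcripts of a heart or muscle isozyme and its sister is shown for 4 pairs, with every base identical in both and counted on the first gene's transcript.

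Pgam2 and Pgam1, bases 653 to 680: aggccatcatggagctgaacctgcccac
Pfkm and Pfkl, bases 1463 to 1488: catgatggctttgagggtctggccaa
Eno3 and Eno1, bases 518 to 537: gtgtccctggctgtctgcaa
Ldha and Ldhb, bases 981 to 998: ggtggtggacagtgccta

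The longest, of 28 bases, is shorter than the shortest read kept (30 bases). Each family was dominated by the isozyme known from heart or striated muscle, as a share of the family's normalized counts per kilobase of merged exons. The size of a share depended on the length used. *Pgam2* held 99.1 and 98.9% of the mutase family in the mitochondrial and 97.1 and 97.0% in the rest libraries. *Pgam1*, the more widely expressed isozyme, had 31 and 31 normalized counts against 33 and 32. *Eno3* held 95.8 and 96.2% of the enolases against 93.7 and 92.0%, the rest being *Eno1* and *Eno1b*. Per unshared window *Eno3* held less, 78.8 and 80.4% against 71.9 and 66.3%. *Eno1* measured 147 and 112 against 112 and 117, and *Eno1b* 23 and 18 against 31 and 33. In mitochondrial replicates 1 and 2 a read was worth 3.87 and 2.55 normalized counts, so *Pgam1* and *Eno1b* had few reads there. The share of *Pgam2*, and part of that of *Eno3*, rests on these reads. *Ldhb* held 91.8 and 90.5% of lactate dehydrogenase against 86.9 and 84.1%. In these 3 families the fractions did not overlap, but *Eno1* shares 65.4% and *Pgam1* 40.6% of their windows with other genes, where reads with several matches were excluded. In each family the sister transcripts were also longer, at 1775 bases for *Pgam1*, 2027 for *Eno1*, 1791 for *Eno1b* and 1766 for *Ldha*. The part of transcript length in the isozyme shares was not tested.

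*Pfkm* held 90.2 and 92.8% of phosphofructokinase in the mitochondrial and 92.0 and 92.5% in the rest libraries, with overlap. Its transcript was also shorter than those of *Pfkl* (3730 bases) and *Pfkp* (4145 bases). *Pfkl*, the liver type, measured 287 and 97 against 189 and 124 normalized counts, and *Pfkp*, the platelet type, 85 and 112 against 99 and 121. Hexokinase, which phosphorylates glucose and whose isozymes 1 and 2 are known to bind to mitochondria as proteins, had another pattern. *Hk2* held 73.2 and 64.5% in the mitochondrial and 76.5 and 77.7% in the rest libraries, and *Hk1* 25.8 and 34.1% against 23.0 and 21.7%. Per unshared window *Hk2* held 59.5 and 49.5% against 63.5 and 65.1%, and *Hk1* 39.6 and 49.3% against 36.1 and 34.4%. The *Hk1* transcript was the shorter of these, at 4278 bases against 5513 for *Hk2*. *Hk2* measured 899 and 612 against 1015 and 950 (log2 fold change -0.40, adjusted p = 0.313) and *Hk1* 453 and 462 against 437 and 380 (0.17, adjusted p = 0.535). *Hk3* and the sperm isozyme *Gapdhs* were listed at 0 to 8 normalized counts, below the filter.

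**Figure D5:**
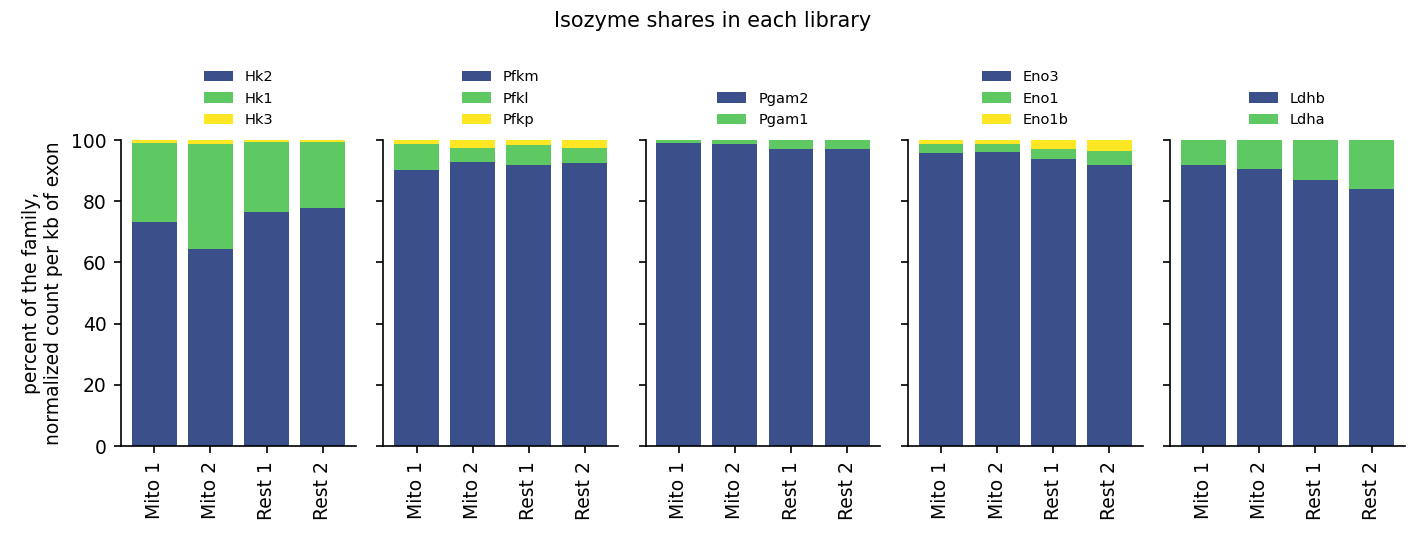
Share of each isozyme (percent, stacked bars) in its family in each of the 4 libraries, from normalized counts per kilobase of merged exons. *Pgam2*, *Eno3* and *Ldhb* take a larger share in both mitochondrial than in both rest libraries, while the shares of *Pfkm* overlap.

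Other genes around the pathway gave values on both sides of 0. Of 50 such genes 42 were listed and 38 tested, and none passed the limma test. Their median log2 fold change was -0.13, close to that of all tested genes (-0.14), and both mitochondrial libraries were above both rest libraries in 9 and below in 11 of the 38, beside 27.7% and 33.4% of all tested genes. At an unadjusted p under 0.05, 1 was higher and 4 were lower, beside 14.1% and 16.2% of all tested genes. Among further enzymes, 9 tested, *Gpi1*, which isomerizes glucose 6-phosphate, measured 639 and 528 against 499 and 449 (log2 fold change 0.29, adjusted p = 0.338). Of 8 tested transport genes the highest were *Bsg*, the chaperone of lactate carriers, *Slc2a4*, the insulin-regulated glucose carrier, and *Slc16a1*, a lactate carrier. *Bsg* measured 2184 and 1987 against 1117 and 1160 (0.87, adjusted p = 0.0577), *Slc2a4* 399 and 265 against 474 and 372 (-0.37, adjusted p = 0.407), and *Slc16a1* 287 and 268 against 398 and 505 (-0.69, adjusted p = 0.103).

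The 8 tested regulators and side branches had low counts, led by *Tigar*, a bisphosphatase, with 120 and 87 against 75 and 64. *Gpd1l* measured 77 and 79 against 78 and 72, and *Pfkfb3*, which makes the activator of phosphofructokinase, 54 and 56 against 64 and 64. Of 13 glycogen genes the most abundant were the phosphorylases *Pygm* (1530 and 1235 against 1687 and 1280) and *Pygb* (1677 and 885 against 1686 and 1204), which overlapped between fractions.

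The protein-coding genes whose pattern over the 4 libraries was most like that of *Gapdh*, by the Euclidean distance of centred log2 values among 5242 nuclear candidates with a mean above 50, were *Ddx23*, *Acat1*, *Asrgl1*, *Rab3ip* and *Reln*, at distances of 0.035 to 0.10. None of the other 9 enzymes was among them. *Acat1*, for instance, measured 1034 and 1079 against 655 and 624.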

How the data were processed

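Per the labels and the methods, RNA of heart fractions was sequenced as single 75-base reads. The authors trimmed reads with Trimmomatic (version 0.39 in the submitters' processing notes), aligned them to mm10 with STAR (2.7.10a), counted reads on exons with featureCounts (2.0.2), excluding reads that overlapped several genes or aligned to several places, and used DESeq2 (1.30.1); the methods text gives other versions of the last 3 tools. Use of strand is not given in the sources used here. The deposited score of each gene is its count, which the authors divided by a size factor per library and rounded to a whole number. Scores are not raw counts, so no count model was used, although the study's own comparison used such a model.

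Values were tested with limma 3.58.1 (R 4.3.3; empirical Bayes, trend) on log2(normalized count + 1), fraction as the only term, over 12150 genes with at least 10 in at least 2 libraries, adjusted by Benjamini-Hochberg. Fold changes on this scale understate changes of low genes. On values simulated for this comparison with 200 of 12150 genes changed 4-fold, 50.5% were recovered with 0 false calls. The 200 were drawn from genes with a mean above 50, and the simulated spread had the same setting for all genes. Recovery of genes with lower values was not tested. The reads per library were estimated by fitting the step whose rounded multiples best matched its values. Whole reads could not be recovered in the rest libraries, where a read is worth less than 1. Transcripts, exons and shared windows came from GENCODE M21 (GRCm38), copies from blastn. The members and lists were chosen with earlier results of these data known. The text names all members, the listed isozymes, genes of other lists past the test or, where fewer than 3 passed, the 3 highest by mean, and the 5 genes nearest to *Gapdh*. Genes not listed (among them *Hkdc1*, *Eno2* and *Pklr*) were not analysed here, and 1 gene that the rule names is not reported here. Alternatives covered scaling, filter, pseudocount, replicate block and each library left out; division of levels by other lengths and the sum of *Gapdh* with its copies were added after seeing the data.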

Additional observations from a re-analysis of the deposited data

How the results depend on the processing

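Recomputing the size factors changed no call of a member. Scaled to the library total, 0 members were called higher and 10 lower (2 and 12022 of all genes, 38 other glycolysis genes lower), to the total of the mitochondrial chromosome 0 and 10 (2 and 12076 of all genes, 38 other genes lower), and to the total of nuclear genes 0 members higher (129 and 3819 of all genes, 10 other genes lower). The first of these divisors gave log2 fold changes of -3.25 for *Gapdh*, -3.14 for *Aldoa*, -3.09 for *Tpi1*, -3.56 for *Pgk1*, -2.53 for *Pgam2*, -3.25 for *Eno3*, -3.54 for *Pkm*, -3.60 for *Ldha*, -2.81 for *Ldhb*, -3.11 for *Bsg*, -3.83 for *Pfkl*, -3.78 for *Eno1*, -3.81 for *Hk1*, -3.68 for *Gpi1*, -3.86 for *Gpd1l*, -3.38 for *Tigar* and -2.37 for *Myl3*. The second gave, in the same order, -3.79, -3.69, -3.63, -4.10, -3.07, -3.80, -4.09, -4.15, -3.35, -3.66, -4.37, -4.32, -4.35, -4.23, -4.39, -3.91 and -2.92. With the nuclear total they turned to -0.13 for *Gapdh*, -0.023 for *Aldoa*, -0.45 for *Pgk1*, -0.14 for *Eno3*, -0.42 for *Pkm*, -0.49 for *Ldha*, -0.73 for *Pfkl*, -0.69 for *Eno1*, -0.70 for *Hk1*, -0.57 for *Gpi1*, -0.80 for *Gpd1l* and -0.30 for *Tigar*, and *Pgam2* kept its direction (0.59, adjusted p = 0.162 in limma). These shifts follow from the divisor, which moves all genes of a library together.

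With genes of a mean above 50, 3 members were called (*Pgam2*, *Ldhb*, *Gapdh*), with 1 other gene higher and 2 lower, and 790 and 670 of 5556 genes in all, fewer being tested. TMM called 443 genes higher and 316 lower, no filter 630 lower, a pseudocount of 10 called 536 and 580, and each of these 3 called 1 other glycolysis gene, *Bsg*. A pseudocount of 0.1 called 0 members and 0 and 0 of all genes (*Pgam2* adjusted p = 0.0543); the cause was not tested. With the replicate block 2 members (*Pgam2*, *Ldhb*), 470 genes higher and 309 lower were called. The labels only share a number: with 2 pairs, the replicate differences of the fractions correlated at r = 0.13 across 12150 genes, which are not independent. With any library left out, the lone library being assumed to vary like the other fraction, the calls of members, other genes and all genes ranged from 0 to 0. Without a library the fold change turned sign in *Pfkm* (-0.34 to 0.28), *Pfkl* (-0.65 to 0.90), *Eno1* (-0.031 to 0.36), *Pfkp* (-0.36 to 0.033), *Gpd1l* (-0.00012 to 0.11), *Pygm* (-0.30 to 0.10) and *Pygb* (-0.69 to 0.235).

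The isozyme share differences (mitochondrial minus rest, percentage points) for *Pgam2* were 1.89, and 4.22, 2.10 and 3.27 without length, per transcript and per unshared window. For *Eno3* they were 3.14, and 5.12, 4.35 and 10.5, and for *Ldhb* 5.65, and 9.33 and 7.75 for the first 2. Without single libraries they ranged from 1.79 to 1.98 for *Pgam2*, 2.26 to 4.02 for *Eno3*, 4.28 to 7.03 for *Ldhb*, -2.07 to 0.56 for *Pfkm* and -12.6 to -3.94 for *Hk2*. Paired by replicate block these means are unchanged by construction.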
